A study of Mus musculus with 19 samples.

Results

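The epidermal growth factor (EGF) family of the mouse was followed through 15 skin tumours and 4 samples of normal skin, as 10 genes out of 34807 in the table. They comprised 7 ligands (Areg, Ereg, Hbegf, Tgfa, Epgn, Btc and Egf) and 3 receptors (Egfr, Erbb2 and Erbb3), taken by matching each Ensembl identifier to its gene symbol, and all 10 were found. No measured value was used to choose them, but they were chosen with earlier results of these data known. Bulk poly(A) RNA sequencing had been done on whole tumour tissue, 1 library per sample, to compare squamous tumours that started in different cells of the epidermis. There were 6 tumours of the genotype Ivl:BRAFV600E, 5 of K5:BRAFV600E, 4 of K14:BRAFV600E and 4 samples of WT skin from control littermates. BRAFV600E, an active form of a kinase of the MAPK pathway, was switched on by tamoxifen-inducible Cre, under the Ivl promoter (committed basal and suprabasal keratinocytes) or the Krt5 or Krt14 promoter (basal keratinocytes). All mice were female by their labels and on a C57BL/6J background, and induction was given at 7 to 20 weeks of age. Ivl mice had tamoxifen on the back, formed tumours late and at several sites of the body. K5 and K14 mice had 4-hydroxytamoxifen and formed 1 tumour each, on the back, so that origin, agent, latency and body site cannot be told apart. Which site each Ivl tumour came from is not given in the sources used here.

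EGF family ligands are made as membrane proteins, cut loose by metalloproteases such as Adam17, and bind receptor tyrosine kinases on the same or neighbouring cells. Ligand binding pairs Egfr with itself or with Erbb2, which has no known ligand of its own, or Erbb3, whose kinase is weak, and the pair signals through adaptors to RAS, BRAF and the MAPK cascade. In the epidermis, keratinocytes make several of these ligands themselves, and the genes for amphiregulin, epiregulin, Hbegf and Tgfa are known to respond to growth factor signals and wounding.

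In GRCm38, Epgn (chr5:91027464-91035215, plus strand), Ereg (chr5:91074622-91093646, plus), Areg (chr5:91139599-91148432, plus) and Btc (chr5:91357261-91402994, minus) lie beside each other. Tgfa is at chr6:86195223-86275719 (plus), Egf at chr3:129677565-129755316 (minus), Egfr at chr11:16752203-16918158 and Erbb2 at chr11:98412470-98437716 (both plus), Erbb3 at chr10:128567523-128589652 (minus) and Hbegf at chr18:36504927-36515805 (minus). Some exons share bases with a gene on the other strand: Ereg shares 141 with Gm19610, Tgfa 118 with Gm43917, and Egf 607 with Gm42697 and 500 with 6330410L21Rik. Erbb2 shares 9 bases with Mien1. The kit kept strand, but whether the counting used it is not stated, so reads of these partners may be in the values.

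Total counts per library lay between 45715309 and 72609771. Values are CPM, counts scaled to a common library size with factors from the trimmed mean of M values (TMM). Ivl tumours 1, 2 and 3 and K5 tumour 1 were unusual as a set. No label names them as a batch, but they are the first 4 samples in the order of the series. Mean CPM by library total was compared between these 4 tumours and the remaining 15 libraries, although 4 of those 15 are skin. For 96.6% of 13954 genes the means differed by less than 0.1 log2. The values had been adjusted for sequencing batch, in batches of 4 and 15 libraries, and which libraries formed each batch is not given. If these 4 tumours were adjusted toward a mean that includes skin, their levels, and with them the Ivl means, are not on the scale of the other tumours, which was not tested. Results are therefore given over all 19 libraries and within the other 15 (3 Ivl, 4 K5, 4 K14 and 4 skin). Over all 19 libraries, 4 of 4 keratins of wounded epidermis and 7 of 7 markers of differentiated keratinocytes were raised against skin in both tumour groups (edgeR), as were 4 of 7 basal markers in Ivl and 6 of 7 in K5/K14 tumours. The summed level of the wound keratins was 998 to 2440.5 CPM in skin, 8404 to 69733 in Ivl and 39901 to 75908 in K5/K14 tumours. Neutrophil markers (3 of 5 raised in both) summed to 9.07 to 37.3, 103 to 6576 and 1592 to 6350.5 CPM in the same order. Skeletal muscle markers summed to 2065 to 6026, 4.09 to 3622 and 4.95 to 325 CPM, and 5 of 5 were lowered in K5/K14 tumours. Sebaceous markers had 3 of 6 lowered in K5/K14 tumours, hair follicle 1 of 7, adipocyte 2 of 5, T cell 2 of 5, fibroblast 1 of 6 and macrophage 1 of 5, where 38.9% of all genes were lowered, with none raised and none called in Ivl tumours. Of endothelial markers 1 of 5 was raised in both and 1 lowered in K5/K14, and of melanocyte markers 1 of 5 was lowered in Ivl tumours. Within the 15 libraries, melanocyte markers had 4 of 5 lowered in Ivl and 5 of 5 in K5/K14 tumours, macrophage 2 and 4 of 5, sebaceous 2 and 3 of 6, adipocyte 1 and 3 of 5 (with 1 raised in Ivl), fibroblast 2 and 1 of 6, T cell 1 and 2 of 5, skeletal muscle 1 and 5 of 5, and hair follicle, endothelial and basal markers 1 each in both. Of all markers, Krt35 in K5 tumours alone was at 3 counts or fewer in every library of a group. Rn7sk, an RNA without a poly(A) tail, was at 2279 to 3275 CPM of the library total in skin. It was at 1283 in Ivl tumour 2, 934 in Ivl tumour 3 and between 2.12 and 13.3 in the other tumours. Skin libraries had 3242 to 3670 genes at 0 counts and tumours 5562 to 10882. Whether the skin libraries held another kind of RNA was not tested. Such a difference could not be told apart from that between skin and tumour in any comparison with skin. The part of these lists and of Rn7sk in the results below was not tested. In bulk tissue, fewer cells of a type and less RNA per cell cannot be told apart.

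Against normal skin, 5 of the 7 ligands were raised in both tumour groups. In Ivl tumours 5 of the 10 members were raised and 0 lowered, where 20.4% of all 32031 genes tested were raised and 15.5% lowered (edgeR quasi-likelihood test, Benjamini-Hochberg adjusted p under 0.05). In K5/K14 tumours, taken as 1 group, 5 were raised and 2 lowered, beside 23.2% and 38.9% of all genes. Within the 15 libraries the numbers were 5 raised and 2 lowered in Ivl tumours (22.2% and 32.7% of all genes) and 5 raised and 3 lowered in K5/K14 tumours (23.9% and 42.3%). The comparisons share their skin libraries, so they are not independent. The median log2 change of all genes tested was -0.46 in Ivl and -0.60 in K5/K14 tumours, that of the 10 members 0.98 and 1.28. In DESeq2 the median of all genes was -0.59 and -0.72. For several members the ranges of tumours and skin are said not to overlap. The share of all genes without such overlap is not given here for the comparisons with skin. These statements therefore describe single genes and do not show that the members stand out.

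**Figure D1:**
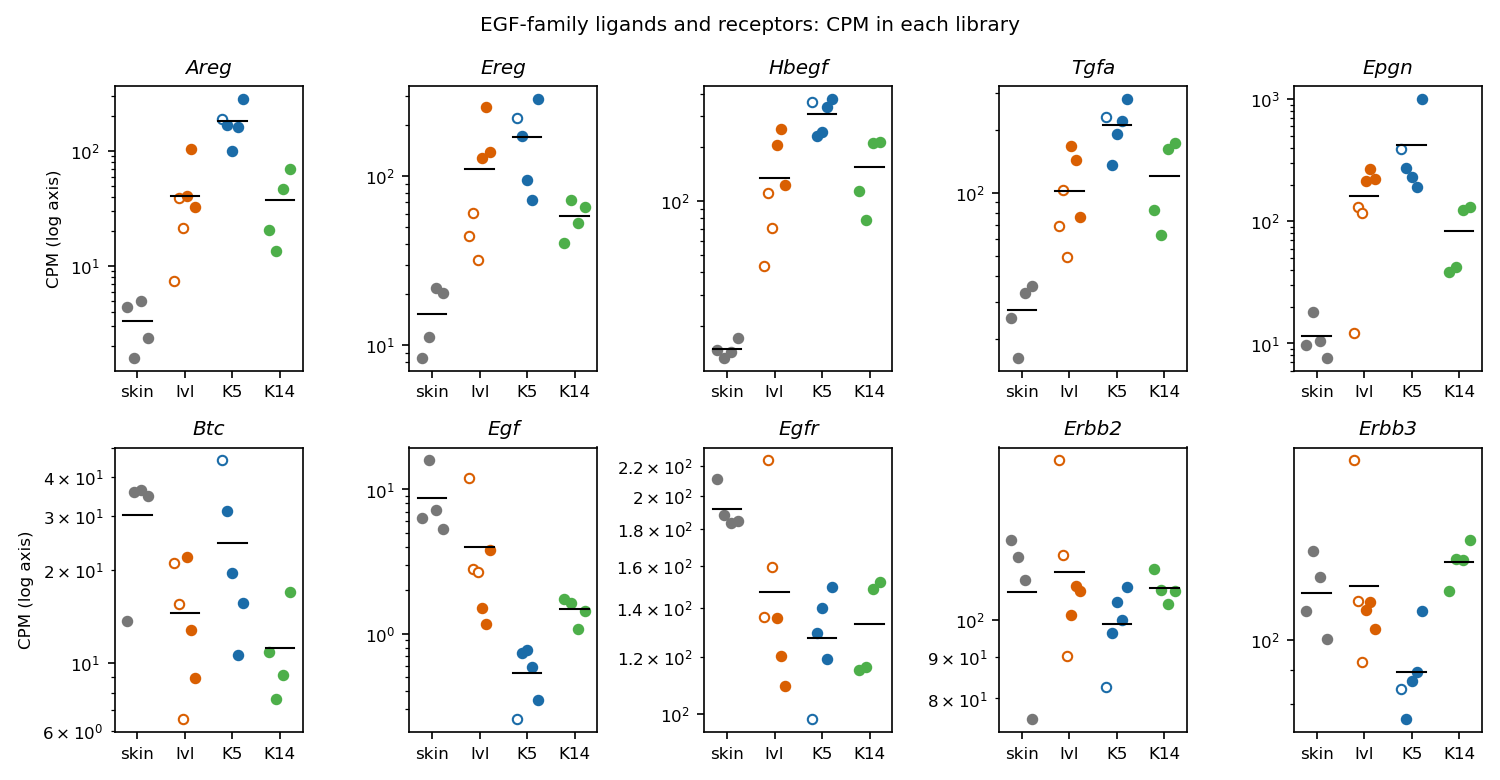
Level of each member in every library, in CPM on a log axis whose range differs between panels; each point is a library, the line is the group mean, and open points are the set of 4 tumours named above. Areg, Ereg, Hbegf and Tgfa were higher in all 15 tumours than in the 4 skin libraries, and so was Epgn except in Ivl tumour 1.

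Areg encodes amphiregulin, a ligand of Egfr and an autocrine growth factor of keratinocytes. It was at 4.38, 1.58, 4.98 and 2.35 CPM in the 4 skin libraries. The K5 tumours held 191, 167, 100.4, 164 and 284 CPM and the K14 tumours 20.5, 13.6, 46.7 and 70.1. Ivl tumours ranged from 7.45 to 104 CPM, with a median of 35.9, so that no tumour overlapped skin and the K5 tumours overlapped the Ivl tumours only in the highest Ivl library. The log2 fold change against skin was 5.14 (SE 0.93) in K5/K14 tumours (35.3-fold, edgeR adjusted p = 0.000197) and 3.62 (SE 0.87) in Ivl tumours (12.3-fold, adjusted p = 0.00369). Among the members this was the largest change in K5/K14 tumours.

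Epgn encodes epigen, a ligand of low affinity and high potency. Skin held 9.74, 18.0, 10.4 and 7.61 CPM, K14 tumours 38.7, 42.4, 123 and 131, and K5 tumours 390.2, 276, 231, 193 and 1009. The highest K5 value, in tumour 5, was above all other libraries. Ivl tumours ranged from 12.2 to 270.0 CPM, with a median of 173, and the lowest, Ivl tumour 1, lay within the range of skin. Epgn rose by 4.56 (SE 0.96) log2 in K5/K14 tumours (23.7-fold, edgeR adjusted p = 0.000704) and by 3.82 (SE 0.93) in Ivl tumours (14.1-fold, adjusted p = 0.00421). Within the 15 libraries, from which Ivl tumour 1 is left out, the Ivl change was 4.37 (SE 0.96). Without K5 tumour 5 the K5/K14 change was 3.96 and still called.

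Hbegf, the heparin-binding ligand of Egfr and Erbb4, was even across skin, at 14.6, 13.3, 14.2 and 17.1 CPM. K5 tumours held 358, 232, 242, 337 and 373 CPM and K14 tumours 114, 78.8, 211 and 215, without overlap between them. Ivl tumours ranged from 43.4 to 254 CPM, with a median of 117, all above skin. Hbegf rose by 4.02 (SE 0.51) log2 in K5/K14 (edgeR adjusted p = 5.1e-06) and by 3.19 (SE 0.49) in Ivl tumours (adjusted p = 6.89e-05), and it had the smallest adjusted p of the 10 members in both comparisons.

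Ereg encodes epiregulin, which binds Egfr and Erbb4. It was at 8.43, 11.2, 21.8 and 20.3 CPM in skin, 222, 173, 94.5, 72.3 and 286 in K5 tumours and 40.1, 72.5, 52.8 and 66.0 in K14 tumours, and in Ivl tumours from 32.0 to 258 CPM, with a median of 94.1, with no overlap between tumours and skin. The changes were 2.96 (SE 0.66) log2 in K5/K14 tumours (edgeR adjusted p = 0.00114) and 2.84 (SE 0.68) in Ivl tumours (adjusted p = 0.00338). In Ivl tumours it was 3.503 (SE 0.64) within the 15 libraries, or 11.3-fold in place of 7.14-fold. Tgfa, transforming growth factor alpha, had the smallest change of the raised ligands. Skin held 25.4, 16.3, 33.3 and 35.9 CPM, K5 tumours 229, 136, 191, 219 and 279.6, K14 tumours 82.4, 62.7, 162 and 173, and Ivl tumours ranged from 49.6 to 166 CPM, with a median of 90.0, again without overlap with skin. It rose by 2.62 (SE 0.41) log2 in K5/K14 (edgeR adjusted p = 3.95e-05) and by 1.87 (SE 0.41) in Ivl tumours (adjusted p = 0.00144).

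Btc and Egf did not share this direction. Btc, betacellulin, was at 13.6, 35.8, 36.5 and 34.9 CPM in skin, the first library well below the other 3. K5 tumours held 45.4, 31.0, 19.5, 10.6 and 15.6 CPM, K14 tumours 10.8, 7.61, 9.10 and 17.0, and Ivl tumours ranged from 6.54 to 22.0 CPM, with a median of 14.2, so the groups overlapped. Its log2 change was -1.06 (SE 0.46) in Ivl (edgeR adjusted p = 0.0758) and -0.71 (SE 0.42) in K5/K14 tumours (adjusted p = 0.149). Within the 15 libraries, without K5 tumour 1, which held the highest value, it was called lowered in K5/K14 tumours (-0.99, SE 0.36, adjusted p = 0.0259). In Ivl tumours DESeq2 called it lowered (-1.18, adjusted p = 0.0361), and so did edgeR without skin library 1 (-1.31, adjusted p = 0.0443) or K5 tumour 1 (-1.06, adjusted p = 0.0427).

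Egf, the founding ligand, had the lowest mean of the members per exonic length in every group. Its level was 6.37, 15.9, 7.15 and 5.36 CPM in skin, 1.75, 1.64, 1.08 and 1.44 in K14 and 0.254, 0.734, 0.768, 0.583 and 0.346 in K5 tumours, which is 16 to 34 counts per K5 library. Ivl tumours ranged from 1.17 to 12.0 CPM, with a median of 2.75, and the highest was Ivl tumour 1. Egf fell in K5/K14 tumours, with a log2 change of -3.19 (SE 0.53) (edgeR adjusted p = 6.89e-05) and no overlap with skin. In Ivl tumours the change was -1.12 (SE 0.59) (adjusted p = 0.129) over all libraries and -2.01 (SE 0.57) within the 15 (adjusted p = 0.00859). Leaving out Ivl tumour 1 alone gave -1.86 (adjusted p = 0.00919). That library had the lowest sums of basal keratinocyte (10888 CPM) and neutrophil markers (103 CPM) of the 6 Ivl tumours, and whether this bears on its low Epgn and high Egf was not tested.

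**Figure D2:**
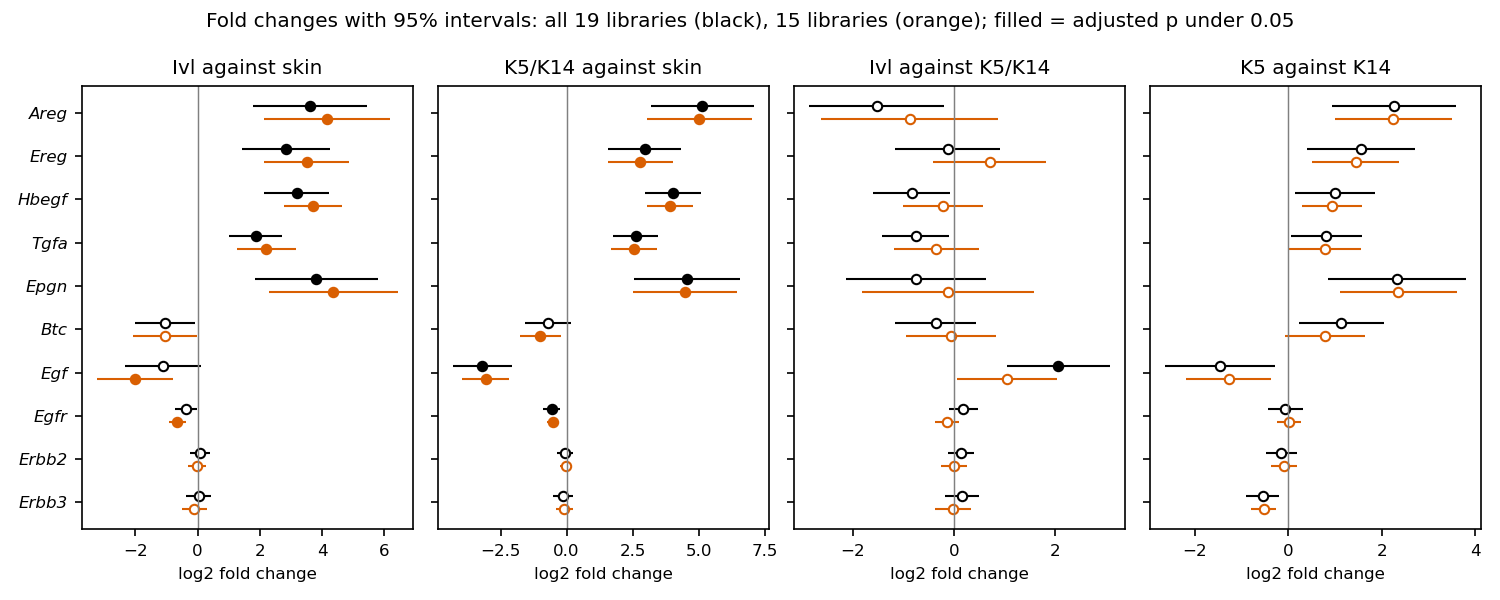
Log2 fold change of each member with its 95% interval in 4 comparisons, over all 19 libraries (black) and within the 15 libraries (orange); filled points have an edgeR adjusted p under 0.05. Areg, Ereg, Hbegf, Tgfa and Epgn lie to the right of 0 in both comparisons with skin, Egf and Egfr to the left, and Erbb2 and Erbb3 near 0.

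Of the receptors, Egfr passed the test in K5/K14 tumours, and Erbb2 and Erbb3 passed in neither comparison. Egfr, the shared receptor of all 7 ligands, was at 211, 188, 184 and 185 CPM in skin. K5 tumours held 98.2, 129, 140.2, 119 and 149.7 CPM, K14 tumours 115, 116, 149 and 152, and Ivl tumours ranged from 109 to 224 CPM, with a median of 136, the highest being Ivl tumour 2. It fell in K5/K14 tumours (-0.56, SE 0.15 log2, edgeR adjusted p = 0.00415), where all 9 tumours were below all skin libraries. In Ivl tumours the change was -0.38 (SE 0.17) (adjusted p = 0.0795) over all libraries and -0.66 (SE 0.13) (adjusted p = 0.000584) within the 15, and DESeq2 gave -0.51 (adjusted p = 0.0226). Without Ivl tumour 2 alone it was -0.54 (edgeR adjusted p = 0.00423), and without K14 tumour 1 -0.44 (adjusted p = 0.0478).

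Erbb2 was at 75.4 to 126 CPM in skin, 82.6 to 116 in K5/K14 and 90.4 to 157 in Ivl tumours. Its log2 change was -0.06 in K5/K14 (95% interval -0.36 to 0.23) and 0.08 in Ivl tumours (-0.23 to 0.40), and the sign in Ivl tumours turned with DESeq2 size factors (-0.05). Erbb3 was at 100.3 to 136 CPM in skin, with log2 changes of -0.13 in K5/K14 (interval -0.51 to 0.26) and 0.03 in Ivl tumours (-0.38 to 0.45), the latter -0.10 with DESeq2 size factors. The groups overlapped for both genes, and the intervals leave changes of this width undecided.

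Levels of different genes were compared per kb of exonic length. In skin the 7 ligands summed to 21.6 to 31.9 CPM per kb, against 80.0 to 221 in K14, 317 to 985 in K5 and 49.1 to 375 in Ivl tumours. The 3 receptors summed to 47.4 to 62.2 in skin and 38.6 to 73.1 in tumours. Ligand RNA was therefore below receptor RNA in all 4 skin libraries, with a ratio of 0.353 to 0.597. It was above receptor RNA in 14 of 15 tumours, at 6.75 to 18.7 in K5 and 1.505 to 3.83 in K14 tumours, the exception being Ivl tumour 1 at 0.671.

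The mixture of ligands differed too. Btc made up 23.6% ± 6.48 (SD, n = 4) of ligand RNA per length in skin, and it or Epgn led in each skin library. In tumours the Btc share was 1.17% ± 0.652 in K5 (n = 5), 1.91% ± 0.715 in K14 (n = 4) and 2.73% ± 3.35 in Ivl tumours (n = 6). Ivl tumour 1 alone held 9.49%, and without it the Ivl share was 1.38% ± 0.608 (n = 5). Epgn led in 12 of the 15 tumours, with 42.8% ± 15.6 in Ivl, 40.6% ± 9.96 in K5 and 30.7% ± 4.82 in K14 tumours. Areg reached 29.8% ± 5.43 in K5 tumours and led in 1 of them. Hbegf held 22.6% ± 3.23 in K14 tumours, where it led in 1, and Ereg led in Ivl tumour 1. Egf did not pass 2.16% in any tumour, and in skin it made up 2.81% ± 1.48. These shares describe RNA only and were not tested.

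**Figure D3:**
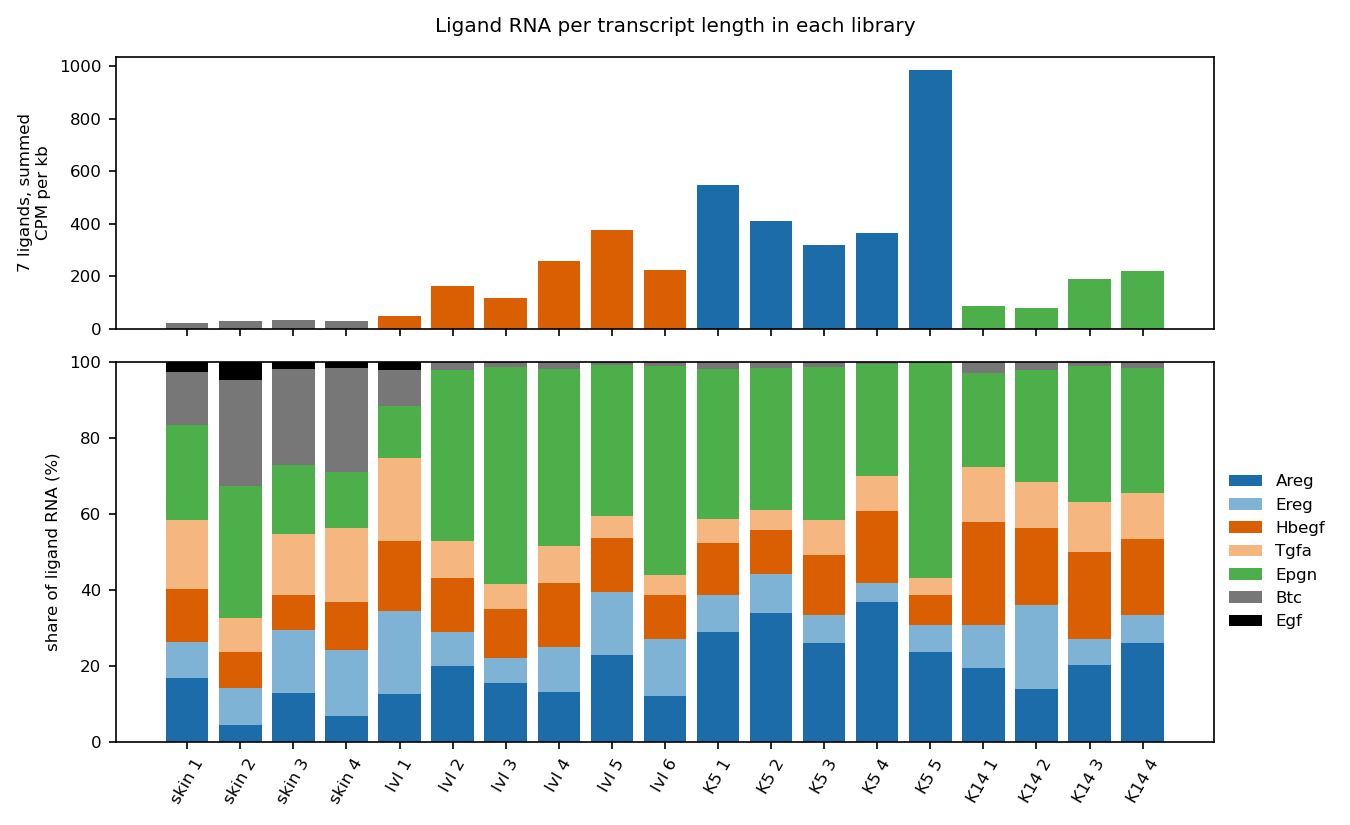
Summed level of the 7 ligands (top, CPM per kb of exonic length) and the share of each ligand in it (bottom, percent), 1 bar per library. The grey Btc share is wide in the 4 skin libraries and narrow in the tumours, where Epgn (green) leads in 12 of 15.

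To ask whether the tumours differ by the cell of origin, Ivl tumours were set against the merged K5/K14 group. Only Egf passed the test among the 10 members (1 raised, 0 lowered, beside 1.77% and 0.593% of all genes). It was higher in Ivl tumours, by 2.06 (SE 0.49) log2 (edgeR adjusted p = 0.0356), at 3.99 ± 4.02 CPM (SD, n = 6) against 0.954 ± 0.551 CPM (SD, n = 9), and the groups overlapped. The call was lost within the 15 libraries (1.05, SE 0.46, adjusted p = 0.405) and without Ivl tumour 1 (1.33, adjusted p = 0.0849), and leaving out each of 7 K5 or K14 tumours (K5 1 to 5, K14 3 and 4) also ended it, with values of 1.93 to 2.16. Areg was at -1.52 (SE 0.63) log2 and did not pass (edgeR adjusted p = 0.177), with Hbegf at -0.83 (SE 0.36) and Tgfa at -0.75 (SE 0.32). Within the 15 libraries these 3 values were -0.87, -0.21 and -0.34. For Ereg the 95% interval ran from -1.15 to 0.91, and for Epgn from -2.12 to 0.63, so sizeable differences either way are within them.

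K5 and K14 tumours, which start in the same layer, were then set against each other. Means of 6 ligands were higher in K5 tumours and that of Egf lower. Over all 19 libraries no member passed the adjusted test, and neither did any gene in the table (0%, edgeR). Within the 15 libraries no member passed either, but the chemokine gene Cxcl1 on chromosome 5 did (2.41, SE 0.39 log2, edgeR adjusted p = 0.0455). At an unadjusted p under 0.05 over all 19 libraries, 6 members were higher in K5 tumours and 2 lower, where 2.54% and 3.53% of all genes were. Areg differed by 2.26 (SE 0.63) log2 (unadjusted p = 0.0022, edgeR adjusted p = 0.593), from 37.7 ± 25.9 CPM (SD, n = 4) in K14 to 181 ± 66.6 CPM (SD, n = 5) in K5 tumours. Epgn differed by 2.32 (SE 0.70), Ereg by 1.55 (SE 0.55), Btc by 1.13 (SE 0.43), Hbegf by 0.996 (SE 0.40) and Tgfa by 0.81 (SE 0.36). Egf was lower in K5 tumours, at -1.46 (SE 0.56) and Erbb3, at -0.55 (SE 0.17).

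The K5 and K14 ranges did not overlap for Areg, Hbegf and Epgn (3 members higher in K5, 2.04% of all genes) or for Egf and Erbb3 (2 lower, 2.4%). DESeq2 called Areg (adjusted p = 0.0145) and Epgn (adjusted p = 0.0279), 2 of the 65 genes it raised (0.203%). Markers of hair follicle summed to 18.3 to 29.0 CPM in K5 and 31.2 to 1038 in K14 tumours, without overlap, neutrophil markers to 2744 to 6350.5 and 1592 to 3979, and basal keratinocyte markers to 42940.5 to 55439.8 and 44846 to 66552. Their part in the differences was not tested. By mean level the order was K5, Ivl, K14, skin for Areg, Ereg and Epgn, and K5, K14, Ivl, skin for Hbegf and Tgfa. In it, the ranges of neighbouring groups overlapped except between the lowest tumour group and skin for Areg, Ereg and Epgn (K14 and skin) and for Hbegf and Tgfa (Ivl and skin), and between K5 and K14 for Hbegf. Egf ran from skin over Ivl and K14 to K5, with K14 and K5 apart. For Btc, Egfr, Erbb2 and Erbb3 all neighbours overlapped.

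Across the 15 tumours, members varied together. For 45 pairs the Pearson correlation of log2 CPM was tested by permutation (100000 resamples, two-sided, Benjamini-Hochberg over the 45), and 23 pairs passed, 13 positive and 10 negative. The share of all gene pairs that would pass in these tumours was not computed. The counts therefore do not show that the members vary together more than other genes do. All 10 pairs among Areg, Ereg, Hbegf, Tgfa and Epgn were positive and passed, with r from 0.61 to 0.95. Areg and Hbegf, on different chromosomes, had the highest (r = 0.95, Spearman rho = 0.95, permutation p = 1e-05 for each, the smallest that 100000 resamples give, adjusted p = 9e-05 for r). Without the 2 tumours farthest from the median of Areg, r was 0.92. Hbegf and Tgfa followed (r = 0.93, rho = 0.90, permutation p = 1e-05 and 1e-05, adjusted p = 9e-05 for r, and r = 0.95 without the 2 tumours farthest in Hbegf). Among neighbours on chromosome 5, Ereg and Epgn had r = 0.77 and rho = 0.90 (permutation p = 0.00053 and 3e-05, adjusted p = 0.00238 for r). Without the 2 tumours farthest from the median, 7 of the 10 pairs among the 5 ligands passed. The pairs of Ereg with Areg, Hbegf and Tgfa did not.

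Egf ran opposite to the 5 raised ligands, with r from -0.90 (Hbegf) to -0.60 (Ereg), and all 5 pairs passed. For Hbegf and Egf rho was -0.91 (permutation p = 1e-05 for r and 3e-05 for rho, adjusted p = 9e-05 for r), and without the 2 tumours farthest in Hbegf r was -0.83. Erbb2 and Erbb3 varied together over all tumours (r = 0.80, rho = 0.69, permutation p = 0.00045 and 0.0059, adjusted p = 0.00225 for r). The pair did not pass without the 2 tumours farthest in Erbb2 (r = 0.58, permutation adjusted p = 0.0829). Nor did it pass outside the set of tumours named above (r = 0.64, permutation adjusted p = 0.123). Both genes were highest in Ivl tumour 1, which belongs to that set. The pair passed after either subtraction of group means described below. No pair of Egfr with any of the 5 ligands passed, with r from -0.36 to -0.02, and none of Btc, with r from 0.27 to 0.53.

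The pairs were recomputed within groups and without the 4 libraries. Among the 11 tumours outside the set of 4 tumours named above, 10 of 45 pairs passed, 7 of them among the 5 ligands, whose r ran from 0.33 (Ereg and Tgfa) to 0.96 (Hbegf and Tgfa). After the means of Ivl and K5/K14 tumours were subtracted, 21 pairs passed, including all 10. With the means of Ivl, K5 and K14 subtracted, an alternative added after the data were seen, 16 passed, 9 of them among the 5 ligands. Within the 6 Ivl tumours r of these 10 pairs lay between 0.47 and 0.94, and within the 9 K5/K14 tumours between 0.58 and 0.98. Of the 5 pairs of Egf with these ligands, 3 passed among the 11 tumours, where r was -0.32 with Ereg and -0.57 with Epgn. Without the 2 tumours farthest from the median 3 passed as well, and all 5 passed after either subtraction of means. The sign of Egfr was not stable: its r with the 5 ligands was 0.06 to 0.72 among the 11 tumours.

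**Figure D4:**
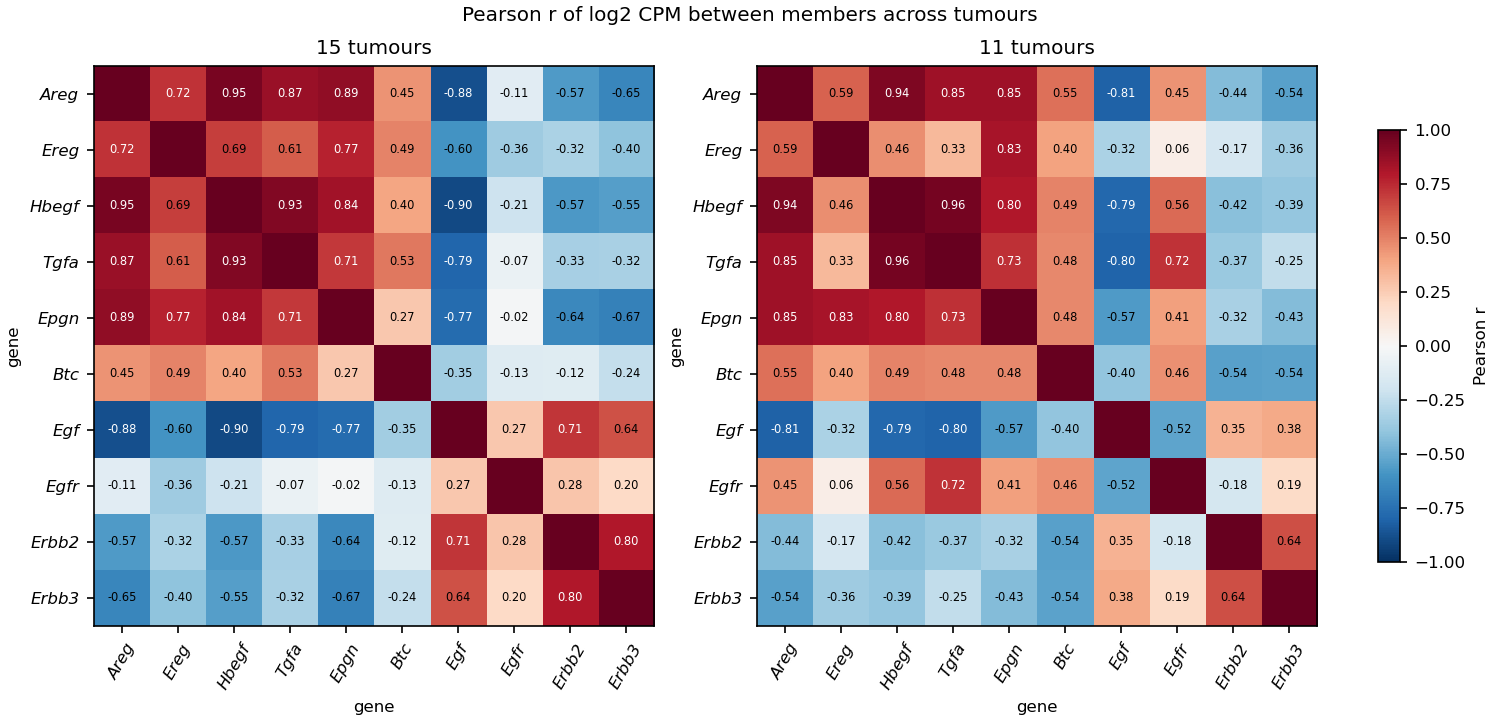
Pearson r of log2 CPM for each pair of members, across 15 tumours (left) and across the 11 tumours outside the set of 4 tumours named above (right); red is positive and blue negative. The block of Areg, Ereg, Hbegf, Tgfa and Epgn is red in both, and the Egf row is blue against these 5 in both.

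The genes most like each member were sought among 14946 genes with a mean over 1 CPM in tumours, by Pearson r of log2 CPM over the 15 tumours, as a description. For Areg they were Oaf (0.97), Clcf1 (0.96), Hbegf (0.95), for Hbegf Dusp7 (0.97), Mcpt2 (0.96), Il24 (0.96), and for Tgfa Il4ra (0.95), Nptx1 (0.94), Tax1bp3 (0.94). Clcf1 and Il24 are cytokines, Il4ra is a receptor chain for interleukins and Dusp7 is a phosphatase of MAP kinases. Epgn was most like Phlda1 (0.94), Nppb (0.92), Arc (0.91). Phlda1, Nppb (a natriuretic peptide) and Arc are genes known to respond to growth signals. Ereg was most like Rexo4 (0.93), Mthfd2l (0.90), Tbc1d10a (0.87), of which Mthfd2l is a neighbour on chromosome 5. Btc was most like Lzts1 (0.86), Lce1m (0.84), Tcp11l1 (0.82), Lce1m being a gene of the cornified envelope, and Egf most like Rassf9 (0.95), 1190002N15Rik (0.95), Tarsl2 (0.94). The receptors were most like Aff1 (0.94), Nos1ap (0.92), Ptprj (0.92) for Egfr, Tmem94 (0.94), Kdm3b (0.94), Tet3 (0.93) for Erbb2 and Bsn (0.91), 1700055D18Rik (0.89), Slc23a1 (0.89) for Erbb3. Among the 11 tumours all 3 values of Erbb2 fell to 0.65 to 0.70. Tcp11l1 for Btc fell to 0.60, and Aff1 and Ptprj for Egfr fell to 0.74 and 0.76. The lowest of the other values was 0.79 (Lce1m for Btc).

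Epgn, Ereg, Areg and Btc lie in a stretch of chromosome 5 that also holds genes for CXC chemokines, which draw neutrophils. Of the protein-coding genes within 500 kb of that stretch, Cxcl1 rose by 4.73 (SE 0.90) log2 in K5/K14 tumours against skin (edgeR adjusted p = 0.000303), Cxcl2 by 5.38 (SE 1.13) and Cxcl3 by 5.91 (SE 1.21). In Ivl tumours their changes were 4.03, 5.42 and 5.75, and all 3 passed. Cxcl5 was at 0 to 1 counts in skin and at 5 to 683 in K5/K14 tumours, at least 133-fold higher against a floor of 3 counts per library, and at least 164-fold higher in Ivl tumours. Mthfd2l, a mitochondrial folate enzyme that lies between the chemokines and Epgn, rose by 0.79 (SE 0.18) and 0.71 (SE 0.19). Ppbp, a platelet chemokine, passed in Ivl tumours (5.66, SE 1.46, edgeR adjusted p = 0.00612) and was at 1.29 (SE 1.14) in K5/K14 tumours (adjusted p = 0.328). Rassf6 fell in K5/K14 tumours (-1.07, SE 0.25, adjusted p = 0.00125), while Afm, 5830473C10Rik, Pf4, Parm1 and Btc passed in neither comparison over all libraries.

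**Figure D5:**
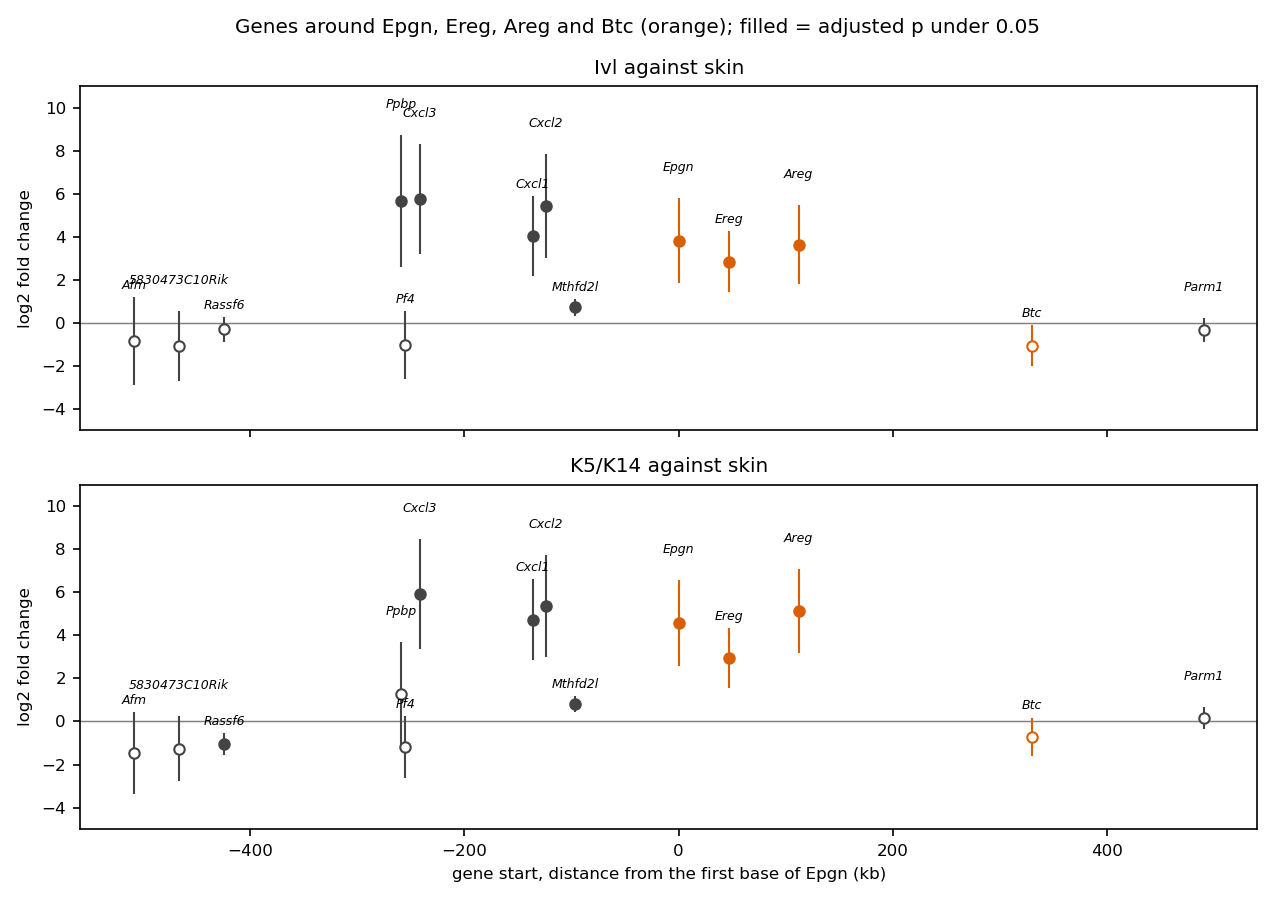
Log2 fold change against skin, with 95% interval, of the protein-coding genes around Epgn, Ereg, Areg and Btc (orange), by distance of the gene start from Epgn in kb, for Ivl (top) and K5/K14 tumours (bottom); Cxcl5 is left out because skin held 0 to 1 counts. Filled points passed the test, and the raised genes run from the chemokines to Areg, while Pf4 among the chemokines and Btc beyond Areg have values below 0 in both groups and open points.

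The promoters are shown for 3 raised ligands and for Btc, the neighbour that was not raised. They were chosen because they differ in what they hold near the start, so a contrast between them was built in. Whether these motifs go with the change of a gene was not tested. They come from RefSeq, build GRCm38.p6, and 7 of the 10 members had an entry in that table (not Ereg, Hbegf and Erbb3). Printed is the part of the 250 bases before the RefSeq start that precedes the gene in the annotation used here, 5′ to 3′ on the gene's strand, at chr5:91139349-91139598 (plus), chr5:91027267-91027463 (plus), chr6:86194972-86195221 (plus) and chr5:91402995-91403244 (minus). Capitals mark the motifs searched: the cAMP response element TGACGTCA, the AP-1 site TGANTCA, the GC box GGGCGG or CCGCCC, and the TATA box TATAAA on the gene's strand only.
Areg: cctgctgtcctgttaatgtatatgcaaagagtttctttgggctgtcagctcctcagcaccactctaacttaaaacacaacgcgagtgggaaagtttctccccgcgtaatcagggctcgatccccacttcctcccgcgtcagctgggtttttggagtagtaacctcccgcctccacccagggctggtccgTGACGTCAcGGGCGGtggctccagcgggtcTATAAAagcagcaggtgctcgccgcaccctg
Epgn: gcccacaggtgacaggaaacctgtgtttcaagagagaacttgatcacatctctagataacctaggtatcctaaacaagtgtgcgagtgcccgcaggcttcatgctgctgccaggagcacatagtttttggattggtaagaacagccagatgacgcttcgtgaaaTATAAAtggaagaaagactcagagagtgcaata
Tgfa: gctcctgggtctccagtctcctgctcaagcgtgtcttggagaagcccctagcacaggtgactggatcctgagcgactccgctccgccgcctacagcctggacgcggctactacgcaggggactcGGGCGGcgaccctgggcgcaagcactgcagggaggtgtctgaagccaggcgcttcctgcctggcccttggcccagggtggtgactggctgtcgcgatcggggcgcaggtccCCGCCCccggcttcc
Btc: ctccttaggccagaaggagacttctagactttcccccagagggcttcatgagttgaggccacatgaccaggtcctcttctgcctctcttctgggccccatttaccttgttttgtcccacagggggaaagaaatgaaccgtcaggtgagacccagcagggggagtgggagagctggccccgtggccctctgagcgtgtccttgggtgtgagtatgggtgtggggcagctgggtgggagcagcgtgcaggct

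Areg held TGACGTCA, 61 bases before its start, followed by a GC box and a TATA box at 52 and 31 bases. TGACGTCA is in 1.79% of the 32851 promoters of 300 bases in the table, a TATA box in 8.32% and a GC box in 35.7%. Epgn held a TATA box 86 bases before the RefSeq start. That start (91027517) lies inside the gene as annotated here (from 91027464), so the box is nearer to the annotated start. Tgfa held GC boxes at 126 and 15 bases and no TATA box. Btc held none of the motifs, and TGANTCA, in 7.81% of promoters, was in none of the 7 members' windows. Of the members not printed, Egfr, which fell in K5/K14 tumours, held a GC box 9 bases before its start. Egf and Erbb2 held none of the motifs. The palindromes TGACGTCA and TGANTCA read the same on both strands. A match is a string of letters only, and binding was not measured.

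Genes around the family were followed in 5 lists, 47 genes in all. Against skin 15 were raised and 5 lowered in Ivl tumours and 21 and 9 in K5/K14 tumours (edgeR, beside the shares of all genes given above). Within the 15 libraries 15 were raised and 12 lowered in Ivl and 22 and 12 in K5/K14 tumours, with 5 of 10 inhibitors and 2 of 12 MAPK output genes among those lowered in Ivl tumours. The median log2 change of the 47 genes within the 15 libraries was 0.058 in Ivl and 0.26 in K5/K14 tumours. Over all 19 libraries, to which the list values below belong, it was 0.15 and 0.32. Of 10 sheddases and partners, which free the ligands, 5 were raised and 1 lowered in Ivl and 8 and 0 in K5/K14 tumours (medians 0.37 and 0.64). Adam17, the main sheddase of Areg, Hbegf and Tgfa, rose from 66.0 ± 12.3 CPM (SD, n = 4) in skin to 113 ± 9.73 CPM (SD, n = 9) in K5/K14 and 99.6 ± 10.5 CPM (SD, n = 6) in Ivl tumours (0.77, SE 0.12 and 0.59 (SE 0.12) log2, edgeR adjusted p = 2.96e-05 and 0.000999). Adam8 rose by 1.88 (SE 0.31) and 1.49 (SE 0.32), and is also made by neutrophils, whose markers were higher in tumours, and their part in its change was not tested. Furin, a proprotein convertase that activates the sheddases, rose by 0.94 (SE 0.19) in K5/K14 tumours (adjusted p = 0.000369) and by 0.61 (SE 0.20) in Ivl tumours. Adam19 was the 1 gene lowered in Ivl tumours (-1.20, SE 0.34, adjusted p = 0.011).

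The other ERBB ligands are the neuregulins, which bind Erbb3 and Erbb4. Of these 4 and Erbb4, 1 was raised and 1 lowered in Ivl tumours and 1 and 2 in K5/K14 tumours. Nrg1 rose from 6.32 ± 2.85 CPM (SD, n = 4) in skin to 68.7 ± 27.5 CPM (SD, n = 9) in K5/K14 and 44.4 ± 26.7 CPM (SD, n = 6) in Ivl tumours (3.44, SE 0.51 and 2.81 (SE 0.51) log2, edgeR adjusted p = 2.84e-05 and 0.000297). Nrg4 fell, with changes of -1.43 (SE 0.32) and -1.02 (SE 0.35). Erbb4 was at 15 to 62 counts in skin, 0 to 19 in Ivl and 0 to 1 in K5/K14 tumours, at least 6.42-fold lower in K5/K14 tumours against a floor of 3 counts per library. Ivl tumours were above K5/K14 tumours for Erbb4 in the test (edgeR adjusted p = 0.0268), which failed within the 15 libraries (adjusted p = 0.229). Nrg3 was at 0 in all tumours and at 0 to 21 counts in skin.

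Of 10 inhibitors of the receptors, 2 were raised and 2 lowered in Ivl tumours and 3 and 5 in K5/K14 tumours (medians -0.20 and -0.46). Cblc, an epithelial ubiquitin ligase of Egfr, rose by 1.61 (SE 0.22) and 1.65 (SE 0.23) log2 in K5/K14 and Ivl tumours (edgeR adjusted p = 8.8e-06 and 2.62e-05), and Socs5 by 1.15 (SE 0.21) and 0.90 (SE 0.22). Lrig1, a membrane inhibitor of ERBB receptors and a marker of epidermal stem cells, was lowered in both (-0.63, SE 0.26, adjusted p = 0.0422, and -1.14 (SE 0.28), adjusted p = 0.00412), and Lrig3 in K5/K14 tumours (-1.33, SE 0.30, adjusted p = 0.000979). Errfi1, a feedback inhibitor of Egfr that MAPK signals induce, rose in K5/K14 tumours (1.54, SE 0.36, adjusted p = 0.00151), and was at 0.79 (SE 0.37) in Ivl tumours (adjusted p = 0.0941). Socs4 was lower in K5/K14 tumours than in Ivl tumours, where it exceeded them by 0.41 (SE 0.10) (adjusted p = 0.0384), a call lost within the 15 libraries (adjusted p = 0.172). Errfi1 lies outside the 3 genes per list of the naming rule and was chosen after its values were seen.

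Of 10 adaptors, 3 were raised and 1 lowered in Ivl and 4 and 2 in K5/K14 tumours. Grb7, which lies close to Erbb2 on the chromosome and binds its product, rose by 1.18 (SE 0.14) and 0.98 (SE 0.14) log2 (edgeR adjusted p = 2.11e-06 and 3.09e-05) while the change of Erbb2 was -0.06 and 0.08. Ptpn11, the phosphatase SHP2, rose by 0.40 (SE 0.12) and 0.37 (SE 0.13), Gab2 was lowered (-0.94 and -0.90), and Shc1 rose by 0.58 (SE 0.14) and 0.37 (SE 0.14). Of 12 genes of MAPK output, 4 were raised and 0 lowered in Ivl and 5 and 0 in K5/K14 tumours (medians 0.03 and 0.48). Fosl1, a subunit of AP-1, rose by 4.68 (SE 0.72) and 3.99 (SE 0.71), and Dusp5, a phosphatase of ERK, by 2.73 (SE 0.35) and 2.08 (SE 0.34) (edgeR adjusted p = 4.58e-06 and 0.000115). Etv4 rose by 1.58 (SE 0.29) in K5/K14 tumours and Phlda1 by 2.47 (SE 0.54) in Ivl tumours. In K5 against K14 tumours the median of this list was 0.62, beside a median of 0 over all genes. Of its 12 genes 4 were higher without overlap, where 2.04% of all genes were, and none was called.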

How the data were processed

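Poly(A) RNA of 15 tumours and 4 normal skin samples was sequenced, 1 library per sample. Per the methods of the study, reads were checked with FastQC (0.11.8), aligned with HISAT2 (2.1.0) and counted per gene with featureCounts of Subread (1.6.3), and the authors then adjusted the counts for batch with ComBat-seq. The deposited values are therefore estimated counts, whole numbers after that adjustment, for 2 batches sequenced at different times, of 4 and 15 libraries, whose members are not given in the sources used here. The adjustment may have narrowed or shifted differences between libraries, and p-values do not account for it. The test planned for raw counts was kept.

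Libraries were grouped by title. The 32031 of 34807 genes that reached 5 counts in any library were scaled by TMM and fitted over all 19 libraries with edgeR (4.0.16, R 4.3.3), with a robust quasi-likelihood F test and Benjamini-Hochberg adjustment over all genes at 0.05. K5 and K14 tumours formed 1 group except where they were compared with each other. SE and 95% intervals are on the log2 scale. Log2 CPM used a prior count of 2. Whether replicates came from separate mice is not stated for every library, so p-values measure the spread between these samples. CPM per kb divides by the exonic length in the annotation, to which 34694 identifiers were matched. The fitting steps were tested on simulated data.

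The text names all 10 members, up to 3 called genes with the smallest adjusted p per pathway list and comparison, the 3 genes most like each member, and protein-coding genes within 500 kb of the chromosome 5 members, of which Cxcl15 did not pass the filter. The members and lists were chosen with earlier results of these data known. Alternatives were DESeq2 (1.42.0), its size factors in edgeR, other filters, a replicate block, only the groups compared, the 4 libraries as a covariate or left out, and each library left out.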

Additional observations from a re-analysis of the deposited data

Results flagged for a closer look

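In 50 sets of 4 to 9 libraries, a set being 1 member in 1 group, the highest or lowest library was compared with the rest by Dixon's ratio on log2 CPM. In 4 sets the library lay beyond the 95% limit, where chance gives about 1 in 20. Epgn in Ivl tumour 1 was the lowest of its group at 3.61 log2 CPM (12.2 CPM), and Erbb3 in the same tumour was the highest at 7.54 (186 CPM). Btc in skin library 1 was the lowest of the skin libraries at 3.77 log2 CPM (13.6 CPM), and Egfr there was the highest at 7.72 (211 CPM).

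The change of Egf against skin differed between Ivl and K5/K14 tumours by 2.06 log2 (edgeR adjusted p = 0.0356), which is the same contrast as Ivl against K5/K14 tumours and rests on the libraries named above.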

How the results depend on the processing

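Areg, Ereg, Hbegf, Tgfa and Epgn stayed raised against skin in both tumour groups under every alternative run. In Ivl against K5/K14 tumours the count of called members went from 1 to 0 within the 15 libraries, with the 4 libraries as a covariate and with a replicate block (Egf 1.92, edgeR adjusted p = 0.114, and against skin in Ivl tumours Areg 3.02, Ereg 2.06 and Epgn 3.18, all still called), and was 0 to 1 when single libraries were left out. Replicate numbers did not pair the libraries: deviations of 25 same-numbered pairs correlated at -0.50 to 0.43, and 2 of 19 libraries matched their own number best. In K5 against K14 tumours the count went from 0 to 2 with DESeq2. Of 45 correlations 23 passed, but 10 within the 11 tumours and 12 without the 2 tumours farthest from the median. Changes that were not called and turned sign were those of Erbb2 in Ivl tumours against skin (0.08), at -0.047 with DESeq2, -0.047 with its size factors, -0.058 with filterByExpr, -0.019 within the 15 libraries and -0.072 to 0.16 without single libraries (below 0 without Ivl 1 and skin 4). Erbb3 there (0.03) was at -0.10, -0.10, -0.11 and -0.10 under the same 4 settings, at -0.029 with only the groups compared, and at -0.14 to 0.098 without single libraries (below 0 without Ivl 1, K14 1, skin 1 and skin 4). Erbb2 in K5/K14 tumours was at -0.21 to 0.015 without single libraries (above 0 without skin 1). In Ivl against K5/K14 tumours Ereg (-0.12) was at 0.71, Egfr at -0.14 and Erbb3 at -0.016 within the 15 libraries. Without single libraries Ereg was at -0.57 to 0.15 (above 0 without Ivl 1, 2 and 3, K5 1 and K5 5) and Erbb3 at -0.0097 to 0.21 (below 0 without Ivl 1). Egfr in K5 against K14 tumours was at 0.017 within the 15 and at -0.13 to 0.017 without single libraries (above 0 without K5 1 and K14 4). The cause was not tested. With 4 to 9 libraries per group, small changes of Erbb2 and Erbb3 could not be resolved. Egfr was called lowered against skin in K5/K14 tumours under all 27 alternatives, but in Ivl tumours under 7 of them. Egf in K5 tumours rests on 16 to 34 counts per library.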
